A study of Mus musculus with 6 samples.

Results

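The fibroblast growth factor (FGF) pathway was examined in RNA-Seq data from microdissected E12.5 mouse craniofacial tissue as 41 of the 38553 genes measured, chosen by gene name. They were 15 secreted ligands, 3 ligands that act as hormones, 4 intracellular FGF homologous factors, 5 receptors, 3 binding or docking proteins, 8 feedback inhibitors and 3 ETS transcription factors of the *Etv* group. The 3 control samples carried 2 floxed *Rbfox2* alleles and no Cre (*Rbfox2* flox/flox), and the 3 *Rbfox2* mutant samples carried the same floxed alleles with Cre knocked into 1 *Pax3* allele (*Pax3*Cre/+:*Rbfox2* flox/flox). All samples were poly(A)+ RNA from embryos at E12.5. *Rbfox2* encodes an RNA-binding splicing factor, and *Pax3*-driven Cre deletes it in the neural crest, the embryonic cell population that forms most of the facial mesenchyme, and in other *Pax3*-expressing cells such as the dorsal neural tube, while the rest of the dissected tissue keeps it. The mutants also lack 1 working *Pax3* allele, so that loss and the deletion of *Rbfox2* cannot be told apart.

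Each value is an FPKM (a fragment count scaled to gene length and to all mapped fragments of the sample), so levels can be set side by side between genes. FPKM values summed to 528123 to 590174 per sample, and the read count under any value is not known. *Rbfox2* itself was at 58.4, 65.0 and 61.3 FPKM in the controls and at 38.1, 36.3 and 34.3 in the mutants, or 58.8% of the control mean, and *Pax3* was at 8.83, 11.9 and 11.1 against 8.62, 7.59 and 8.36. The first replicate of each group stood apart from the other 4 samples along the first principal component (54.7% of the variance), and Y-linked genes were expressed in mutant replicates 1 and 2 and not in the other 4 samples. The dissected tissue held neurons, forebrain progenitors, epithelium, muscle, mesenchyme, vessels and blood by their markers. In such bulk tissue, fewer cells of a type and less RNA per cell cannot be told apart.

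FGF ligands bind receptor tyrosine kinases (*Fgfr1* to *Fgfr4*) together with heparan sulfate. The docking proteins Frs2 and Frs3 then pass the signal to the RAS-ERK cascade, which induces the *Etv* factors and the Sprouty, Spred and Dusp6 inhibitors that dampen it. In the developing face, ligands from the surface epithelium such as Fgf8 and Fgf9 keep the underlying neural crest mesenchyme alive and proliferating. Fgf10 from the palatal mesenchyme acts back on the epithelium through the epithelial isoform of *Fgfr2*, whose mutually exclusive exons are a textbook example of alternative splicing.

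Rbfox proteins bind the RNA element UGCAUG. The hexamer TGCATG, its DNA spelling, was therefore looked for on the sense strand of the longest protein-coding transcript of each gene in GENCODE release M21 (GRCm38), without introns. It was present in 21 of 40 members found in the annotation (52.5%), and in 51.6% of all 21901 protein-coding genes. Among the receptors, *Fgfr1* held 3 copies in its coding sequence (20% of transcripts within 10% of its length held as many or more), *Fgfr2* and *Fgfr4* held 1 each and *Fgfr3* none. The following windows of 30 bases, with the hexamer in capitals, are shown because copies in related genes lie in similar coding sequence. The *Fgfr1* exon 5 and *Fgfr4* exon 5 windows shared 27 of 30 bases, the *Fgfr1* exon 9 and *Fgfr2* exon 7 windows 22, and the *Fgf8* and *Fgf15* windows 19. These counts include the 6 bases of the hexamer, which every window holds by choice.
Fgfr1, exon 5, coding, chr8:25558104-25558133, plus strand: tggagaagaaacTGCATGcggtgcccgctg
Fgfr4, exon 5, coding, chr13:55156801-55156830, plus strand: tggagaagaaacTGCATGcagtgcctgccg
Fgfr1, exon 9, coding, chr8:25566782-25566811, plus strand: ttcctgatctccTGCATGttgggctctgtc
Fgfr2, exon 7, coding, chr7:130196274-130196303, minus strand: ttcttaatcgccTGCATGgtggtgacagtc
Fgf8, exon 4, coding, chr19:45738133-45738162, minus strand: ggtctctacatcTGCATGaacaagaagggg
Fgf15, exon 2, coding, chr7:144897175-144897204, plus strand: gtgcggtacctcTGCATGagcgcggacggc

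*Fgf9*, an epithelial ligand, held 3 copies, all in its 3′ UTR, where 9.67% of transcripts of like length held as many in any position, and 1 of them is shown as an example.
Fgf9, exon 3, 3′ UTR, chr14:58109881-58109910, plus strand: acaatggcctgaTGCATGctgggaaataga
The longest *Fgf2* transcript (5973 bases in 3 exons) held no copy, whereas 79.4% of the 1232 transcripts of like length held at least 1. *Spry1*, a feedback inhibitor, held 3 copies, and 5.43% of transcripts of its length held as many or more. These matches describe letters in mature transcripts and were not tested for binding. The authors reported enrichment of UGCAUG only in the introns of their Rbfox2 target genes. Introns were not searched here, so neither the presence nor the absence of a copy shows whether Rbfox2 acts on a gene.

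The question of the comparison was whether transcripts of the pathway differ in level when *Rbfox2* is deleted. Of the 41 members, 17 had an FPKM over 5 in all controls or all mutants and entered the main test with 10061 genes. Another 13 had a mean FPKM over 1 and were tested with 13715 genes. None of the 17 reached an unadjusted p of 0.05 in limma, where 1.66% of all genes tested did, and none had control and mutant values that did not overlap, where 5% of all genes did. No gene of the 10061 passed an adjusted p of 0.05, and the smallest adjusted p was 0.138. *Rbfox2* itself had that value (unadjusted limma p of 2.75e-05), so the deleted gene did not pass the adjustment either. Of the 30 members with a mean FPKM over 1, 1 had an unadjusted p under 0.05, the ligand *Fgf2*, beside 2.09% of all genes tested, a share close to the background. Changes are given as mutant minus control on the scale log2(FPKM + 1), which understates the change of genes near or under 1 FPKM.

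**Figure D1:**
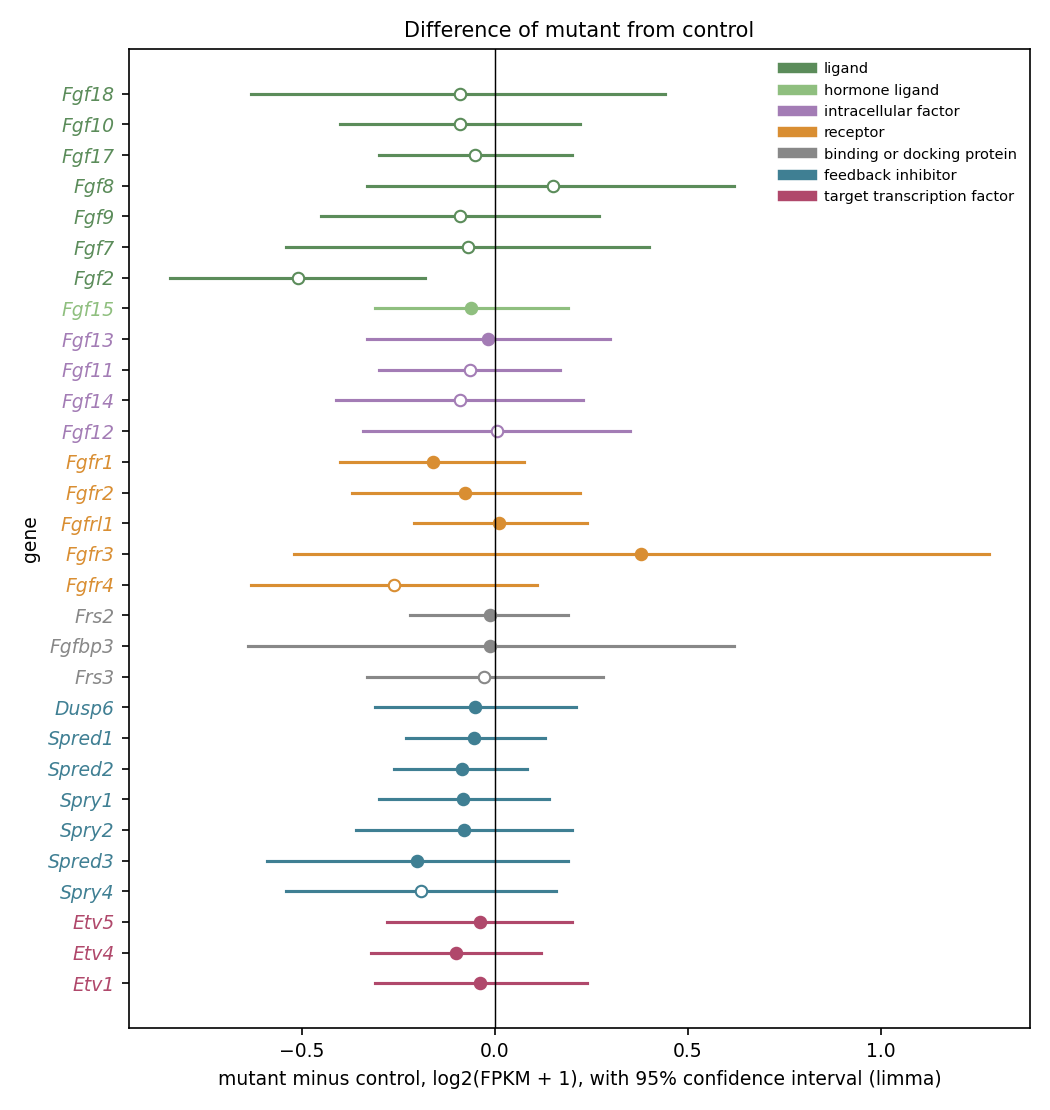
Difference of mutant from control, in log2(FPKM + 1), for the 30 FGF pathway genes with a mean FPKM over 1, from limma on 3 controls and 3 mutants. Points are estimates and lines 95% confidence intervals. Filled points are the 17 genes with an FPKM over 5, open points the other 13, and colours give the role. The interval of *Fgf2* alone lies wholly below 0, and that of *Fgfr3* is the widest.

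Secreted ligands were expressed at low levels. None of the 15 had an FPKM over 5 in every sample of a group, 7 had a mean over 1, and 8 had a mean of 1 or less. *Fgf2*, a ligand stored in the extracellular matrix and exported without a signal peptide, had an FPKM of 1.35, 2.08 and 1.89 in the controls against 1.11, 0.809 and 0.894 in the mutants. All 3 mutants thus lay below all 3 controls, with control replicate 1 nearest to the mutants. The means were 1.77 ± 0.379 and 0.937 ± 0.154 (SD, n = 3 each), so the mutants held 52.9% of the control level. The change was -0.51 (SE 0.14, 95% confidence interval -0.84 to -0.18), with an unadjusted p of 0.00793 and an adjusted p of 1 in limma. The exact two-sided permutation test gave p = 0.10, the smallest that 3 samples against 3 allow.

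Of all 13715 genes tested, 3% also had all mutants below all controls, and *Fgf2* was the only member among the 30 with that order. Within replicate numbers, *Fgf2* differed by -0.15 in replicate 1, -0.77 in replicate 2 and -0.61 in replicate 3. The sign was thus negative in all 3, and the first difference was the smallest. In the 15 alternative fits, its unadjusted p lay between 0.00219 and 0.0424 and its adjusted p between 0.401 and 1, so the lower level of *Fgf2* was a nominal call that no fit carried past the adjustment. *Fgf2* lies at chr3:37348346-37410108 on the plus strand (GRCm38), and its 3′ end overlaps *Nudt6*, a nudix hydrolase gene transcribed from the other strand. The library kit keeps the strand, but whether the counting used it is not given in the sources used here, so reads could be shared between them. *Nudt6* was at 2.42, 2.68 and 3.08 FPKM in the controls and at 2.47, 2.57 and 2.79 in the mutants (change -0.044, SE 0.11), and these groups overlapped.

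**Figure D2:**
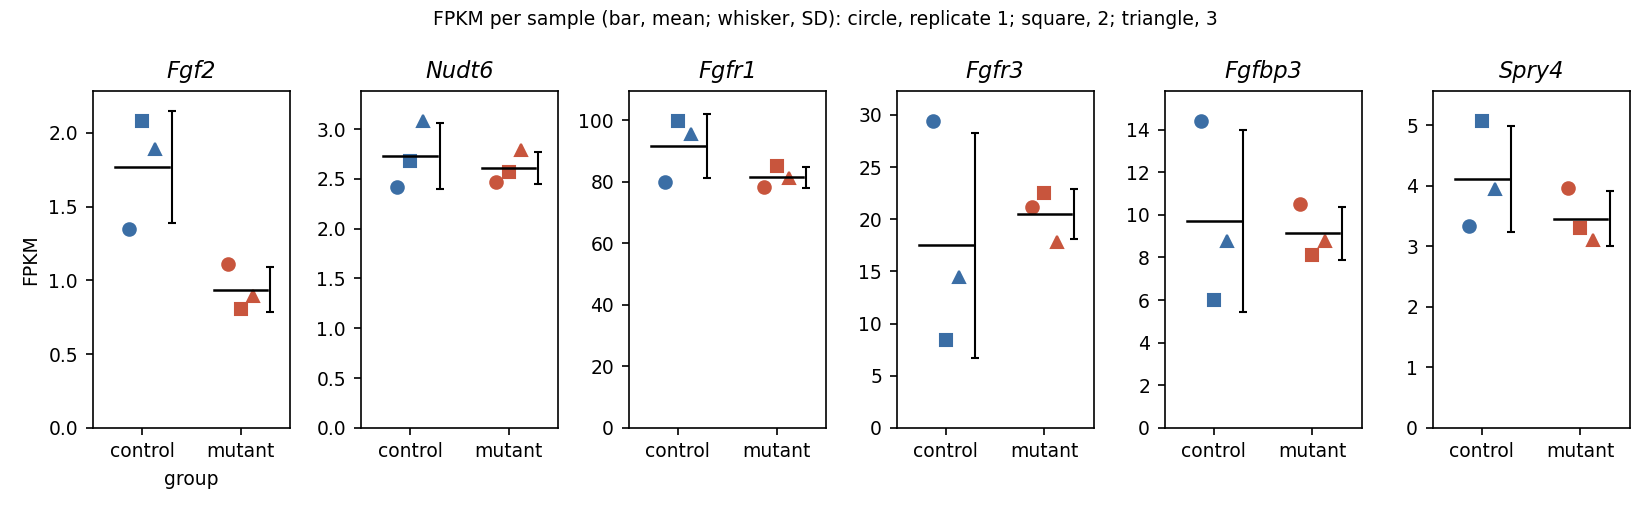
FPKM of 6 genes in each sample (circle, replicate 1; square, replicate 2; triangle, replicate 3; blue, control; red, mutant), with the mean as a bar and the SD as a whisker (n = 3), each axis starting at 0. All mutants lie below all controls for *Fgf2*, while its antisense neighbour *Nudt6* overlaps between groups, and *Fgfr3* and *Fgfbp3* spread more widely among the controls than among the mutants.

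The *Fgf8* group was present without a difference that passed the test. *Fgf8*, an epithelial survival signal for facial mesenchyme, was at 3.28, 1.93 and 3.24 FPKM in the controls and at 2.82, 2.61 and 4.22 in the mutants (change 0.15, SE 0.20). *Fgf17*, a close relative that also patterns the midbrain, was at 3.75, 3.03 and 3.83 against 3.32, 3.23 and 3.56 (change -0.050, SE 0.11). Both groups overlapped for each gene. *Fgf18*, a ligand of the forming skeleton, had the highest mean of the 15 secreted ligands other than the hormones, although its range overlapped that of *Fgf10*. It was at 3.91, 7.52 and 4.67 FPKM in the controls against 4.32, 6.20 and 4.13 in the mutants (change -0.091, SE 0.23). Its highest value in each group was in replicate 2.

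*Fgf10* and *Fgf7*, mesenchymal ligands of the epithelial *Fgfr2* isoform, also overlapped between the groups. *Fgf10* was at 3.76, 4.69 and 4.80 FPKM in the controls and at 4.91, 3.68 and 3.72 in the mutants (change -0.090, SE 0.13). Its mutant sample was higher in the first replicates and lower in the others. *Fgf7* was at 1.06, 2.38 and 1.43 against 1.24, 1.82 and 1.32 (change -0.068, SE 0.20), again highest in replicate 2 of each group. The summed markers of skeletal muscle (154, 382 and 238 FPKM in controls, 149, 219 and 172 in mutants) and of epithelium (166, 281 and 240 against 168, 224 and 175) were likewise highest in replicate 2 of each group, as *Fgf7* and *Fgf18* were. The part of these cell types in the spread of both ligands was not tested. *Fgf9* was at 2.44, 3.71 and 3.07 FPKM in the controls and at 3.38, 2.58 and 2.49 in the mutants (change -0.091, SE 0.15), higher in the first mutant than in the first control and lower in the others.

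The remaining 8 secreted ligands had means of 1 FPKM or less. *Fgf3* led them at 0.800, 0.796 and 0.596 FPKM in the controls against 0.664, 0.544 and 0.645 in the mutants, and *Fgf5* followed at 0.361 to 0.675 over all samples. *Fgf1* was at 0.259, 0.353 and 0.433 in the controls and at 0.677, 0.874 and 0.381 in the mutants. Mutant replicates 1 and 2 were thus above every control and mutant replicate 3 was not. *Fgf16*, *Fgf20*, *Fgf22* and *Fgf6* lay at 0.493 FPKM or less in every sample. *Fgf4* was the only other member with all mutants (0.0296 to 0.0335) below all controls (0.0380 to 0.13), at levels far under 1 FPKM, and no fold is given for it.

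Of the hormone ligands, *Fgf15*, which controls bile acid synthesis in the adult and is a forebrain and pharyngeal ligand in the embryo, had the highest level of all ligands. It was at 19.5, 15.7 and 17.4 FPKM in the controls and at 16.0, 18.6 and 15.8 in the mutants (change -0.061, SE 0.11), and the groups overlapped. *Fgf21* and *Fgf23* did not exceed 0.121 FPKM in any sample. *Fgf15* shares a cluster on chromosome 7 of GRCm38 with *Fgf3* and *Fgf4*, which lie at 144838083-144844436 and 144847367-144865243, before *Fgf15* at 144896531-144900953, all on the plus strand. These neighbours therefore had mean levels of 17.2 (*Fgf15*), 0.674 (*Fgf3*) and 0.0601 FPKM (*Fgf4*).

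The 4 intracellular FGF homologous factors, which bind sodium channels and are not secreted, were led by *Fgf13* at 26.4, 32.8 and 34.5 FPKM in the controls against 26.5, 34.4 and 31.5 in the mutants (change -0.018, SE 0.13). In both groups the first replicate was the lowest. *Fgf11* was at 3.57 to 4.46 FPKM over all samples (change -0.063, SE 0.099). *Fgf14* was at 1.92, 1.86 and 1.64 in the controls against 2.12, 1.38 and 1.46 in the mutants (change -0.090, SE 0.13), and *Fgf12* at 1.27, 1.78 and 1.81 against 1.90, 1.76 and 1.26 (change 0.0072, SE 0.15). These are genes of neurons, and the summed level of 10 neuron markers was 631 to 716 FPKM in the controls against 768 to 846 in the mutants without overlap, with 10 of 10 markers positive and 3 at p under 0.05. No member of the neuronal factor group moved with them past the test.

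**Figure D3:**
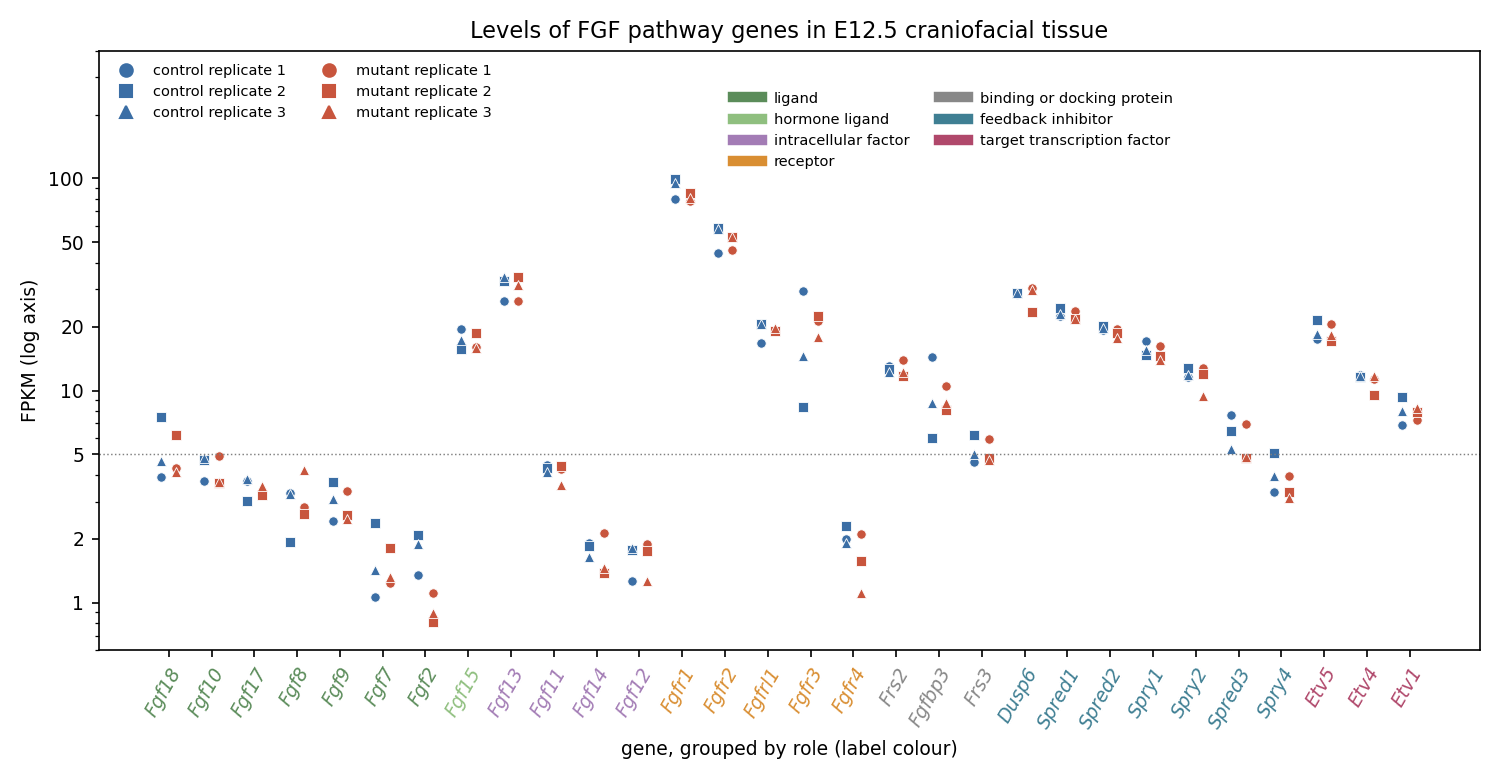
FPKM, on a log axis, of the 30 FGF pathway genes with a mean over 1 in each of 3 control (blue) and 3 mutant (red) samples; symbols give the replicate number and label colours the role. The dotted line marks 5 FPKM. *Fgfr1* and *Fgfr2* lie highest, most ligands lie under 5, and every gene except *Fgf2* overlaps between genotypes.

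Receptors gave the highest levels among the members. *Fgfr1*, the main receptor of mesenchyme, was at 80, 99.7 and 95.4 FPKM in the controls and at 78.2, 85.0 and 81.2 in the mutants. Control replicates 2 and 3 were above every mutant, and control replicate 1 lay within the mutant range. The means were 91.7 ± 10.4 and 81.5 ± 3.44 (SD, n = 3 each), a change of -0.16 (SE 0.10, 95% interval -0.40 to 0.076, limma p = 0.151, adjusted p = 1, exact permutation p = 0.30). With the replicate number as a block, the same change had an unadjusted limma p of 0.0345, and *Fgfr1* was the only one of the 17 members under 0.05, beside 6% of all genes in that fit. Without control replicate 1, the change was -0.26 with a limma p of 0.0212, and the adjusted values did not pass in either fit.

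*Fgfr2*, the receptor with epithelial and mesenchymal splice forms, followed at 44.7, 58.6 and 57.8 FPKM in the controls against 46.0, 53.0 and 53.0 in the mutants (change -0.076, SE 0.12). The first replicate was again the lowest in each group, and the gene-level value does not separate the splice forms. *Fgfr3*, found in the developing brain and cartilage, was at 29.4, 8.39 and 14.5 FPKM in the controls and at 21.2, 22.5 and 17.8 in the mutants. The controls alone spanned the whole range of the 6 samples, 3.51-fold, and enclosed every mutant. The change was 0.38 (SE 0.38, 95% interval -0.52 to 1.28, limma p = 0.353, exact permutation p = 0.70). Without control replicate 1 it was 0.82 with a limma p of 0.00710 (adjusted p not passing 0.05), and without control replicate 2 it was -0.025, so its direction rested on which control was kept.

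The summed level of 10 forebrain progenitor markers was 559, 297 and 449 FPKM in the controls against 478, 566 and 436 in the mutants. In each group it ranked the samples in the same order as *Fgfr3* and *Fgf15* did, with control replicate 2 the lowest of all 6. The part of forebrain tissue in these values was not tested. *Fgfr4*, a receptor of muscle progenitors and endoderm, was the lowest receptor at 1.99, 2.29 and 1.91 FPKM in the controls against 2.11, 1.57 and 1.11 in the mutants (change -0.26, SE 0.16, limma p = 0.147, exact permutation p = 0.30). Mutant replicate 1 lay among the controls and the other mutants lay below them, and without mutant replicate 1 the change was -0.40 with a limma p of 0.0303. The *Fgfr4* change was -0.12 without mutant replicate 3, and -0.54 when the mean of 4 Y-linked genes was a covariate. Only mutant replicates 1 and 2 expressed those genes, so that fit in effect set mutant replicate 3 alone against the controls. *Fgfrl1*, a receptor without a kinase domain, was at 16.7, 20.5 and 20.5 against 19.0, 19.1 and 19.8 (change 0.011, SE 0.096).

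As shares of the summed FPKM of *Fgfr1* to *Fgfr4*, *Fgfr1* made up 55.5% ± 3.93 in the controls against 52.8% ± 0.33 in the mutants (SD, n = 3 each; exact permutation p = 0.40). *Fgfr2* made up 32.5% ± 3.34 and 32.8% ± 1.73 (exact permutation p = 0.90). *Fgfr3* ranged from 4.97% to 18.9%, both extremes being controls, and *Fgfr4* from 0.726% to 1.43%. No share differed between genotypes by more than the spread of the samples. In the order of levels over all samples, *Fgfr1* (mean 86.6) and *Fgfr2* (52.2) did not overlap with each other, nor *Fgfr2* with the next gene, *Fgf13* (31.0). *Fgfr3* could not be ranked against its neighbours *Spred2* and *Etv5*, whose ranges it overlapped.

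The carrier protein gene *Fgfbp3*, which encodes a secreted protein that frees FGFs from the matrix, varied like *Fgfr3* among the controls, at 14.4, 5.99 and 8.76 FPKM, and was at 10.5, 8.10 and 8.76 in the mutants. Controls again enclosed the mutants. The change was -0.012 (SE 0.27), and it ran from -0.28 without control replicate 2 to 0.29 without control replicate 1. The docking protein genes were even, with *Frs2* at 13.1, 12.7 and 12.2 FPKM in the controls against 13.9, 11.7 and 12.2 in the mutants (change -0.011, SE 0.087). *Frs3* was at 4.62, 6.19 and 5.04 against 5.94, 4.81 and 4.72 (change -0.028, SE 0.13).

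The feedback inhibitors, which ERK signalling induces and which are read as a record of pathway activity, gave no member past the test. *Dusp6*, a phosphatase that inactivates ERK, was at 28.6, 29.0 and 28.9 FPKM in the controls and at 30.5, 23.5 and 29.9 in the mutants (change -0.052, SE 0.11). The controls were nearly identical, and mutant replicate 2 was the single low sample. *Spry1* was at 17.2, 14.7 and 15.6 against 16.2, 14.5 and 14.0 (change -0.081, SE 0.093), *Spry2* at 11.6, 12.8 and 11.8 against 12.8, 12 and 9.45 (change -0.079, SE 0.12). *Spry4* was at 3.34, 5.07 and 3.95 against 3.97, 3.31 and 3.10 (change -0.19, SE 0.15). The Sprouty genes, inhibitors of RAS activation, thus overlapped between groups, and the *Spry4* change ran from -0.30 without control replicate 1 to -0.059 without control replicate 2. *Spry3* is listed at 0 in all 6 samples.

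The Spred genes, membrane-bound inhibitors of RAF activation, were similar. *Spred1* was at 22.4, 24.5 and 23 FPKM in the controls against 23.7, 21.8 and 21.8 in the mutants (change -0.053, SE 0.077). *Spred2* was at 19.4, 20.2 and 19.7 against 19.5, 18.6 and 17.7 (change -0.085, SE 0.072, 95% interval -0.26 to 0.085), the smallest SE among the members. *Spred3* was at 7.70, 6.44 and 5.33 against 6.93, 4.82 and 4.88 (change -0.20, SE 0.16). All 6 inhibitors in the main test had a negative estimate, with a median of -0.080, none of them with a p under 0.05.

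The *Etv* transcription factors, the best known nuclear targets of FGF signalling, were also level. *Etv5* was at 17.6, 21.4 and 18.5 FPKM in the controls and at 20.5, 17.2 and 18.2 in the mutants (change -0.038, SE 0.10). *Etv4* was at 11.8, 11.6 and 11.7 against 11.4, 9.51 and 11.7 (change -0.10, SE 0.093). As with *Dusp6*, the *Etv4* controls were nearly identical and mutant replicate 2 was the low sample. *Etv1* was at 6.87, 9.33 and 8.03 against 7.23, 7.92 and 8.26 (change -0.037, SE 0.12). The 95% intervals of the 3 genes lay between -0.32 and 0.24.

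Small negative estimates were frequent across the pathway. Of the 17 members in the main test, 15 had a negative change (88.2%), with a median of -0.053, beside 47.2% of all 10061 genes, whose median was 0.0057. With 1 sample left out, the median ran from -0.11 (without mutant replicate 1) to -0.037 (without mutant replicate 3). Without mutant replicate 2, 11 of 17 were negative. With the Y-linked covariate, which in effect leaves mutant replicate 3 alone against the controls, 12 of 17 were negative. Of the 30 members with a mean FPKM over 1, 26 were negative, beside 49.3% of all genes. The lean was not particular to the members. In the main test, negative estimates were those of 9 of 10 epithelium markers (median -0.19) and 6 of 6 of skeletal muscle (-0.40). So were those of 8 of 10 markers of cranial mesenchyme (-0.081) and 4 of 5 of cartilage and bone. Most markers of neurons, forebrain progenitors, endothelium, erythroid cells and otic epithelium were positive. The genes share samples and are not independent, so these shares are a description. Taken within replicate numbers, the mutant was lower than the control for 11 of the 30 members in the first replicates and for 23 of 30 in each of replicates 2 and 3, where 52.6%, 50.7% and 47.4% of all genes were lower. For 15 of the 30 members (50%) the mutant was higher in the first replicates and lower in both others, a pattern that 15.6% of all 13715 genes had. *Fgf9*, *Fgf10*, *Fgf18*, *Fgfr4*, *Spry2*, *Spry4*, *Spred1* and *Etv5* were among them.

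**Figure D4:**
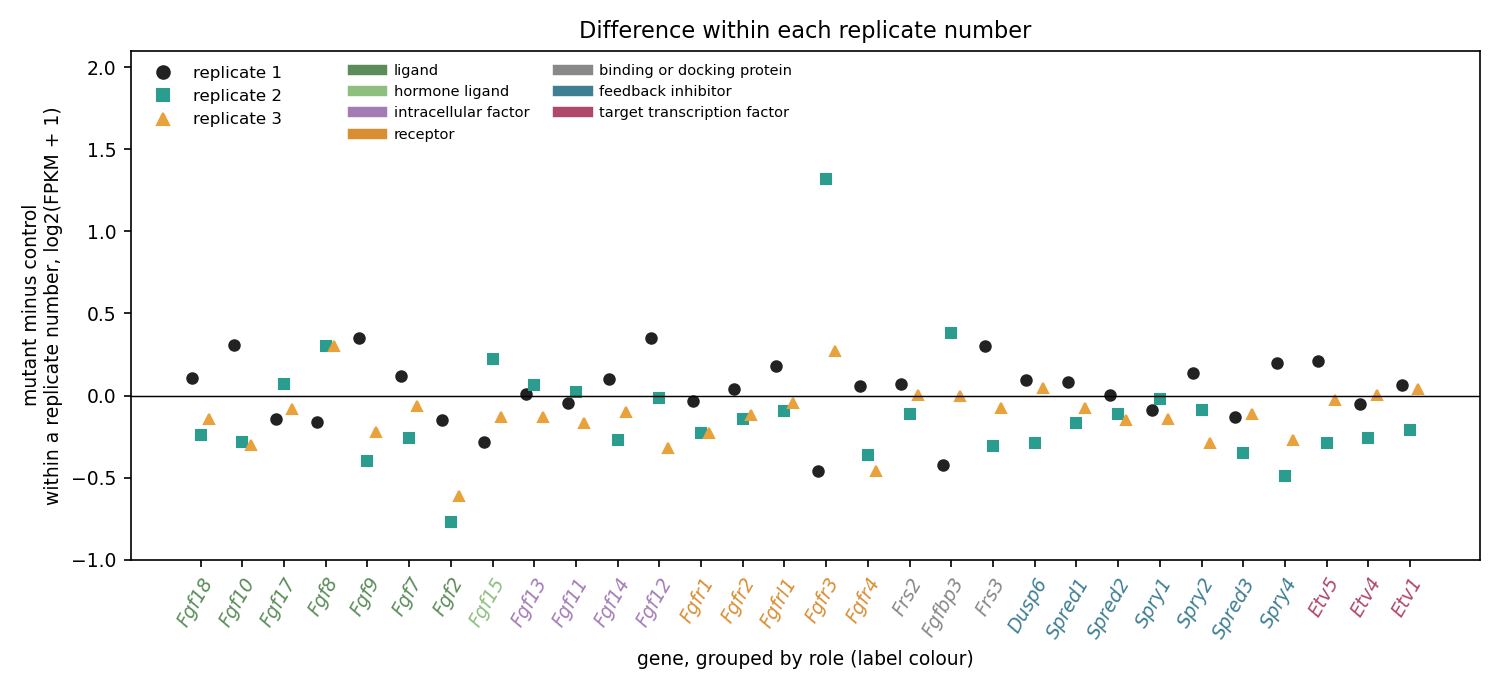
Mutant minus control within each replicate number, in log2(FPKM + 1), for the 30 FGF pathway genes with a mean FPKM over 1, grouped by role (label colour); circles, replicate 1; squares, replicate 2; triangles, replicate 3. Most circles lie above 0 (19 of 30), most squares and triangles below (23 of 30 each), and *Fgfr3* spans the widest range, from -0.46 to 1.32.

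With replicates 2 and 3 only, 7 of the 30 members had an unadjusted p under 0.05 in limma, where 10.1% of all genes tested did, and none passed the adjustment. They were *Fgf2* (-0.69), *Fgf9* (-0.31), *Fgf10* (-0.29), *Fgfr1* (-0.23), *Fgfr4* (-0.41), *Spry4* (-0.38) and *Fgfr3* (0.80). All except *Fgfr3* were lower in the mutants. That fit rests on 2 samples a group, and the first replicates of both genotypes are left out of it.

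The rest of the pathway was read from 4 lists of 79 other genes, of which 68 had an FPKM over 5 in all controls or all mutants and were in the main test. Of these, 3 had an unadjusted p under 0.05 (4.41%, beside 1.66% of all genes in that test) and none passed the adjustment. In the list of co-receptors and heparan sulfate genes, 2 of 24 were under 0.05, both lower in the mutants. *Glce*, the epimerase that gives heparan sulfate its flexible, FGF-binding form, was at 15.2, 18.0 and 16.9 FPKM in the controls and at 13.4, 14.0 and 14.2 in the mutants (change -0.25, SE 0.084, limma p = 0.0205, adjusted p = 1, exact permutation p = 0.10). *Gpc6*, a heparan sulfate proteoglycan of the cell surface, was at 19.4, 25.3 and 21.9 against 19.1, 17.6 and 18.0 (change -0.27, SE 0.11, limma p = 0.0393, adjusted p = 1, exact permutation p = 0.10). All mutants lay below all controls for both genes. With the mean of 4 Y-linked genes as a covariate, none of the 68 was under 0.05, and in the fits that left out 1 sample the count was 0 without control replicate 2 or 3, 1 without mutant replicate 2 and 6 without control replicate 1.

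Of 13 ERK-responsive transcripts, 1 was under 0.05 and it was higher in the mutants. *Dusp4*, a nuclear ERK phosphatase, was at 24.2, 20.9 and 22.0 FPKM in the controls and at 26.8, 29.8 and 24.8 in the mutants (change 0.27, SE 0.097, limma p = 0.0280, adjusted p = 1, exact permutation p = 0.10). The summed neuron markers given above were also higher in every mutant than in any control. Of the single markers, *Tubb3*, *Stmn2*, *Elavl3* and *Dcx* were so, and the others overlapped between the groups. The part of neurons in the *Dusp4* value was not tested. Among 22 adaptors and members of the RAS-ERK cascade none was under 0.05, the smallest values being those of *Map2k1* (change -0.11, limma p of 0.311) and *Cbl* (0.11, p of 0.370). Among 9 facial mesenchyme genes that depend on epithelial FGF, none was under 0.05 either and 8 had a negative estimate. Negative estimates were also those of 47.2% of all genes in that test and of 8 of 10 cranial mesenchyme markers. *Pax9*, a palate and tooth factor, was at 9.95, 10.1 and 9.43 FPKM in the controls against 10.2, 6.73 and 7.80 in the mutants (change -0.24, limma p = 0.120, exact permutation p = 0.40). *Barx1* (-0.15, limma p of 0.154) and *Pitx1* (-0.18, limma p of 0.204) followed, and for all 3 the first mutant lay within or above the range of the controls. The summed cranial mesenchyme markers were 439 to 503 FPKM in the controls against 399 to 488 in the mutants, and these ranges overlapped.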

How the data were processed

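Craniofacial tissue of 3 control and 3 *Rbfox2* mutant samples was profiled by stranded poly(A)+ RNA-Seq. The authors aligned reads with STAR to GRCm38 and deposited FPKM values, 1 per gene and sample. The annotation release and the step that made the gene table are not given in the sources used here, and whole reads could not be recovered from the low values. Members were chosen by gene name and, like the other lists, with earlier results of these data known. Genes with an FPKM over 5 in all controls or all mutants, or for low members a mean FPKM over 1, were compared on log2(FPKM + 1) with limma 3.58.1 in R 4.3.3 (intensity trend, no covariates, two-sided), checked on simulated data, with Benjamini-Hochberg adjustment over all genes tested. All members with a mean FPKM over 1 are named, as are other pathway genes with p under 0.05 or the 3 smallest p of a list, 1 of which is not reported here. *Nudt6* was chosen after its values were seen. Deviations of samples with the same replicate number correlated at 0.64, 0.26 and 0.51. Mutant replicate 2 correlated more with control replicate 3 (0.40), and control replicate 2 correlated at 0.23 with mutant replicate 3. The numbers thus set the first replicates apart but do not clearly pair replicates 2 and 3. Differences within those numbers, and the replicate block, follow the labels only. The fit with a replicate block is given where it changed a call. Neither the labels nor the methods tie these numbers to litters. Of the members, 17 overlap a gene on the other strand.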

Additional observations from a re-analysis of the deposited data

How the results depend on the processing

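The authors give a range of reads per sample but not the read count behind a single FPKM value, so counting error is not separated from other spread. Alternatives were a pseudocount of 0.1, median ratio scaling, quantile normalization, other filters, a replicate block, no trend, a Y-linked covariate, a term for the first replicates, replicates 2 and 3 only, and each sample left out. The count of FGF genes with an unadjusted p under 0.05 was 0 of 17. It became 1 with the replicate block and 1 with the term for the first replicates (both *Fgfr1*). It was 1 of 30 with a mean FPKM over 1 and 1 of 40 without a filter (both *Fgf2*). With replicates 2 and 3 only it was 2 of 18 (*Fgfr1* and *Fgfr3*), and with 1 sample left out 0 to 2. The cause of these shifts was not tested, except that other filters admit other genes. The Y-linked covariate in effect sets mutant replicate 3 alone against the controls, so no count is given for it. In that fit the changes were -0.32 for *Spry2* and -0.54 for *Fgfr4*. Over all genes, the count under 0.05 was 167, against 604 with the replicate block, 286 with a mean FPKM over 1, 663 without a filter, 611 with the term for the first replicates, 1130 with replicates 2 and 3 only and 78 (without control replicate 2) to 690 (without control replicate 1) with 1 sample left out. The count past an adjusted p of 0.05 was 0, against 3 with the term for the first replicates, 4 with replicates 2 and 3 only and 0 to 5 (without mutant replicate 3). Of the 68 other pathway genes, 3 were under 0.05, against 13 with replicates 2 and 3 only and 0 to 6 with 1 sample left out. With the replicate block, *Fgfr1* was the only FGF gene to gain a p under 0.05, *Fgf2* was still under it, and the same 3 other pathway genes (*Glce*, *Gpc6* and *Dusp4*) were called. Of the 30 members, 12 kept their direction in every fit, and 18 changed it in at least 1, in 40 of 467 values, none of them with a p under 0.05. The Y-linked covariate turned *Fgf13* to 0.023, *Dusp6* to 0.048, *Etv1* to 0.037, *Fgf17* to 0.014 and *Fgf12* to -0.21. Replicates 2 and 3 only turned *Fgfrl1* to -0.071, *Fgf15* to 0.046, *Fgfbp3* to 0.19 and *Fgf12* to -0.17. With 1 sample left out, the change ran from -0.13 to 0.082 for *Fgf13*, from -0.12 to 0.065 for *Dusp6*, from -0.081 to 0.058 for *Fgfrl1*, from -0.025 to 0.82 for *Fgfr3*, from -0.11 to 0.038 for *Etv5*, from -0.13 to 0.015 for *Fgf15*, from -0.077 to 0.036 for *Frs2*, from -0.16 to 0.040 for *Spry2*, from -0.28 to 0.29 for *Fgfbp3*, from -0.14 to 0.061 for *Etv1*, from -0.12 to 0.074 for *Frs3*, from -0.26 to 0.14 for *Fgf18*, from -0.11 to 0.012 for *Fgf11*, from -0.035 to 0.25 for *Fgf8*, from -0.21 to 0.020 for *Fgf9*, from -0.093 to 0.12 for *Fgf12* and from -0.23 to 0.13 for *Fgf7*. Without a change of sign, it ran from -0.16 to -0.020 for *Etv4*, from -0.20 to -0.031 for *Fgf10*, from -0.21 to -0.017 for *Fgf14*, from -0.13 to -0.0020 for *Fgf17*, from -0.26 to -0.10 for *Fgfr1*, from -0.20 to -0.0089 for *Fgfr2*, from -0.40 to -0.12 for *Fgfr4*, from -0.092 to -0.017 for *Spred1*, from -0.12 to -0.052 for *Spred2*, from -0.34 to -0.083 for *Spred3*, from -0.14 to -0.022 for *Spry1*, from -0.30 to -0.059 for *Spry4* and from -0.62 to -0.43 for *Fgf2*.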
